A study of Triticum aestivum with 24 samples.

Results

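The comparison of *Rht-B1b* with *Rht-B1a* in flag leaves rests on 6 of the 12 tissue samples of the series and on all 25 genes other than actin whose values were given. The semi-dwarf near isogenic line carries *Rht-B1b*, from the donor Hi-Line, in the background of the spring wheat Fortuna after repeated backcrossing, and its leaves are tissue samples 11, 14 and 17. The standard height line is Fortuna itself, which carries the wildtype *Rht-B1a*, and its leaves are tissue samples 10, 13 and 16. Both lines grew in an irrigated field, and flag leaves were taken at 14 days past anthesis (DPA). Each line is 1 near isogenic line, so a donor segment linked to Rht-B1 cannot be told apart from the allele. A leaf sample is described once as a composite of 3 plants of a row and once as a single leaf of a plant. The submitters list 12 leaf samples, 2 for each tissue sample, while each tissue sample has 1 column of values and counts here as 1 replicate. The values of a line are given in the order of the tissue samples above.

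Rht-B1 encodes a DELLA protein, a repressor of growth that is broken down when gibberellin binds its receptor GID1. In rice the F-box protein GID2 then marks the DELLA protein for removal. The *Rht-B1b* allele makes a DELLA protein that escapes this control, so that plants stay short. At mid grain fill the flag leaf fixes carbon through RuBisCO, stores part of it as starch during the day and exports sucrose to the grain, and it assimilates nitrogen through nitrite reductase, glutamine synthetase and glutamate synthase. The genes measured cover these steps.

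Levels are in RPKM, read counts corrected for the length of the sequence and the size of the library, which the authors scaled so that actin has the value 1432.5 in every sample. Any difference in actin between 2 samples therefore moves all other genes of a sample together. For this reason each gene is described by its scaled level, by its rank among the 25 genes of a sample, and by its ratio to the other genes of the same sample. Ranks and ratios do not depend on actin. Read counts are unknown, so precision rests on the spread between 3 samples per line. In whole leaves, fewer cells of a type and less RNA per cell cannot be told apart. Markers of green tissue set the leaf samples apart from stems. The 3 rbcS sequences, rbcL and GS2 lay 6.90 to 31.1 times higher in leaves than in stems of *Rht-B1b* and 10.4 to 64.0 times higher in leaves than in stems of *Rht-B1a*. The lowest factor in each line was that of rbcL, whose values were very low. Its mean was 1.35 RPKM in leaves and 0.196 in stems of *Rht-B1b*, and 1.34 and 0.129 RPKM in *Rht-B1a*.

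The order of the genes was nearly the same in all 6 leaf samples. The small subunit sequences of RuBisCO held ranks 1, 2 and 3 in every sample, in the order AB042066, KT288199 and AB042069. The gene rbcL, which encodes the large subunit in the chloroplast, was last at rank 25, with 0.966 to 1.79 RPKM. This is its rank by measured value. Whether RNA of the chloroplast was captured and matched as well as that of other genes was not tested. GAPC8, a cytosolic glyceraldehyde-3-phosphate dehydrogenase of glycolysis, held rank 6, the sucrose transporter SUT1D rank 7 and nitrite reductase (NiR) rank 8. In all, 7 genes had 1 and the same rank in the 6 samples, 11 moved by no more than 1 place and 18 by no more than 2. Apart from rbcL, all genes lay between 225 RPKM (Sbe2) and 1873302 RPKM (rbcS AB042066). For 1 of 25 genes (4%) the ranks of the lines did not overlap. This was Rht-B1, at ranks 11, 9 and 11 in *Rht-B1b* and 14, 13 and 12 in *Rht-B1a*.

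**Figure D1:**
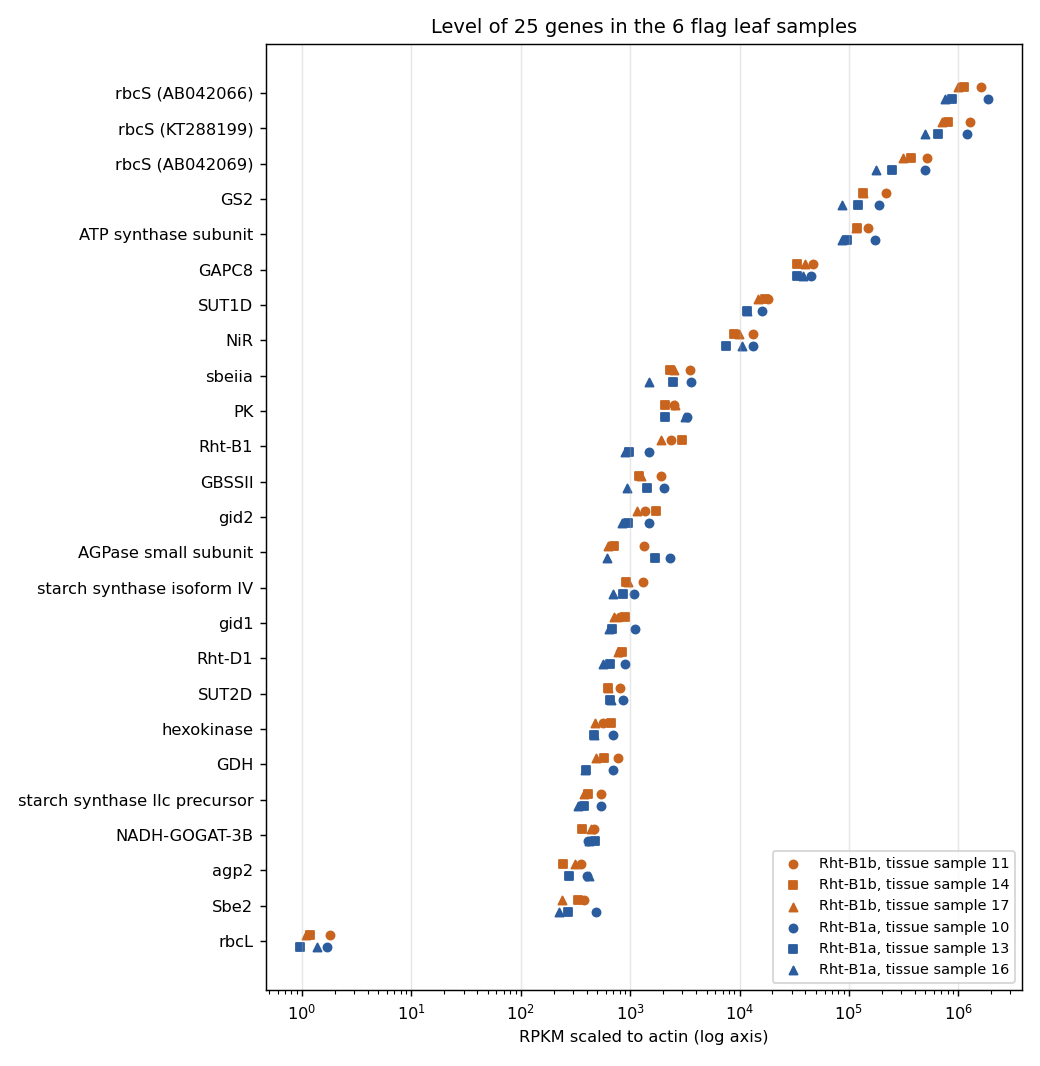
Level of each of the 25 genes (RPKM scaled to actin, log axis) in 3 *Rht-B1b* leaf samples (orange, upper row of each gene) and 3 *Rht-B1a* leaf samples (blue, lower row), with the tissue sample given by the symbol. The lines overlap for every gene but Rht-B1, where *Rht-B1b* lies at 1917 to 2961 RPKM and *Rht-B1a* at 904 to 1473 RPKM.

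**Figure D2:**
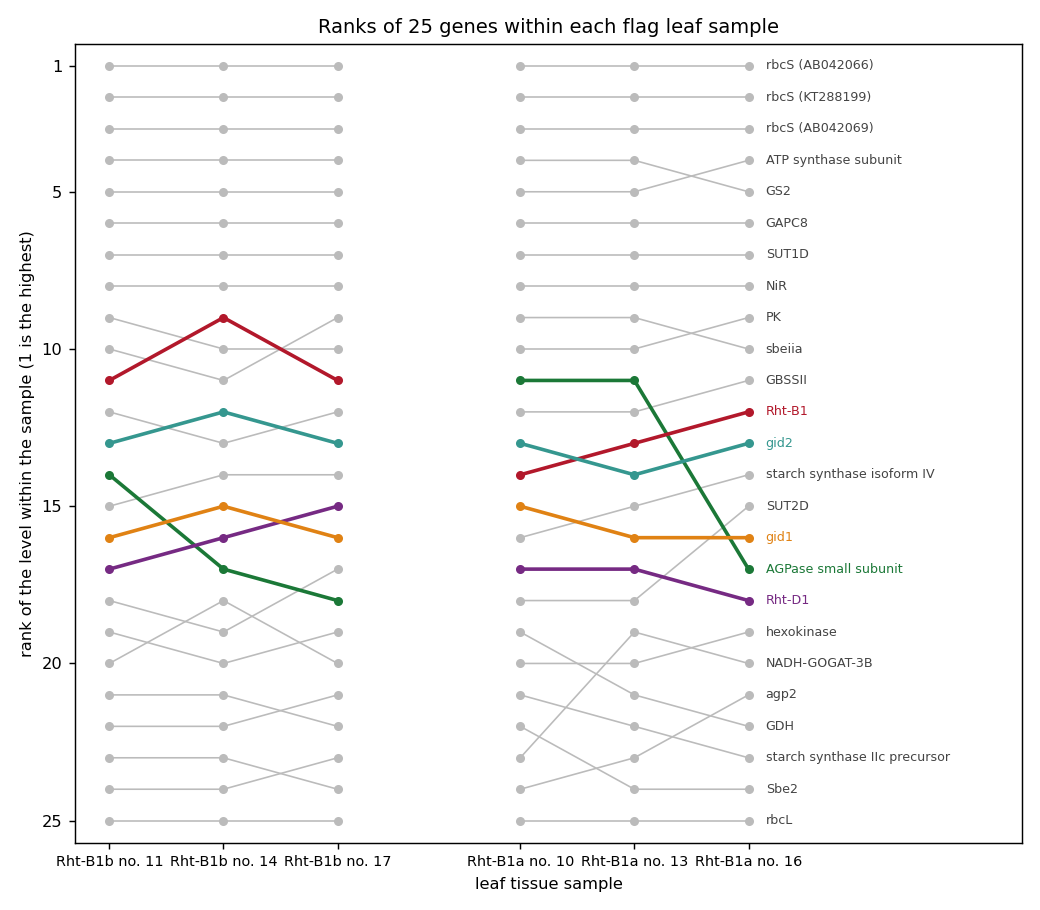
Rank of each gene within each leaf sample (1 is the highest level), with *Rht-B1b* samples on the left and *Rht-B1a* samples on the right. Lines join the values of 1 gene. Rht-B1 is red, the small subunit of ADP-glucose pyrophosphorylase (AGPase) green, Rht-D1 purple, gid1 orange and gid2 teal, and Rht-B1 is the gene whose ranks do not overlap between the lines.

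The replicates of a line differed mainly by a shift that most genes of a sample had in common. In *Rht-B1b*, tissue sample 11 was the highest of its line for 19 genes, and tissue sample 17 the lowest for 17. In *Rht-B1a*, tissue sample 10 was the highest for 23 genes and tissue sample 16 the lowest for 17. The median deviation from the line mean on the log2 scale was 0.28, -0.11 and -0.20 in *Rht-B1b* and 0.43, -0.16 and -0.30 in *Rht-B1a*. Spread was wider in *Rht-B1a* for 23 of 25 genes. The median SD of log2 RPKM was 0.30 in *Rht-B1b* and 0.42 in *Rht-B1a*. With every sample divided by the geometric mean of all 26 genes, actin included, the median SD was 0.18 in *Rht-B1b* and 0.22 in *Rht-B1a*, and spread was wider in *Rht-B1a* for 18 genes. Genes share the shift of their sample, so these counts are a description of 6 samples.

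**Figure D3:**
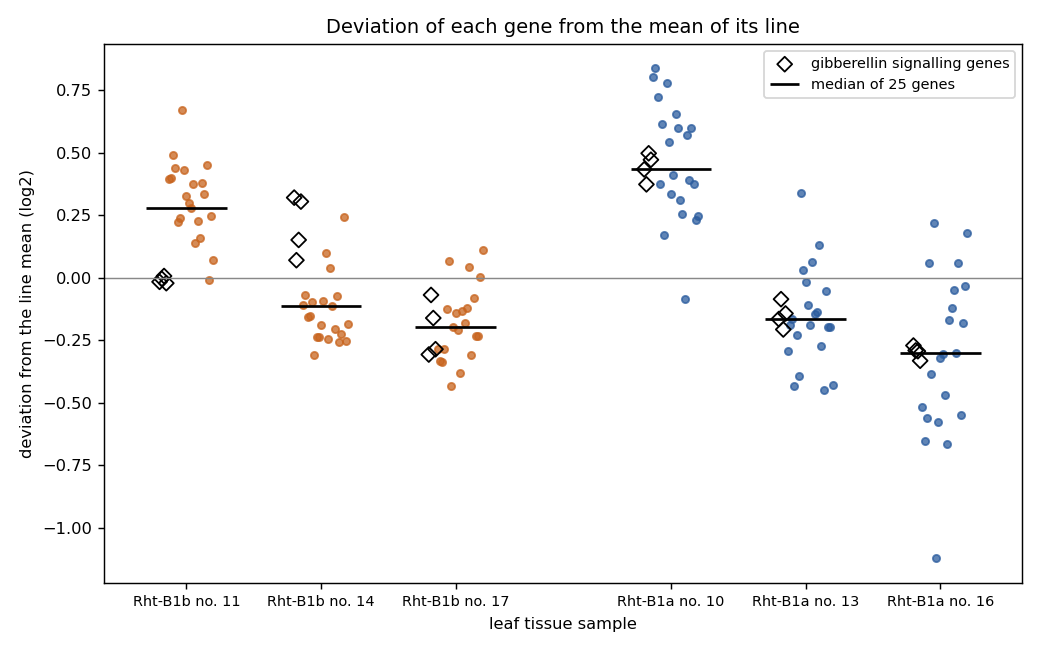
Deviation of each gene from the mean of its line (log2) in the 3 *Rht-B1b* leaf samples (left, orange) and the 3 *Rht-B1a* leaf samples (right, blue). Bars are medians of 25 genes and open diamonds are the 4 gibberellin signalling genes, which lie near 0 in tissue sample 11 and above 0 in tissue sample 14, where the medians are 0.28 and -0.11.

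Rht-B1 was the only gene of 25 (4%) that passed an adjusted p of 0.05 between the lines in leaves (limma on log2(RPKM + 1), two-sided, Benjamini-Hochberg over 25 genes). It was higher in *Rht-B1b*, and 0 genes passed as lower. An unadjusted p under 0.05 was reached by 3 genes (12%), which were Rht-B1, the rbcS sequence AB042069 and the small subunit of AGPase. Samples with consecutive numbers were entered as pairs. The estimates lay above 0 for 20 genes and below 0 for 5, with a median log2 fold change of 0.092. Scaling to the geometric mean moved the median by 0.13 on the log2 scale, to -0.042, and left 12 estimates above 0. The sign of a positive estimate smaller than this shift therefore depends on the scaling. Under that scaling 1 gene passed as higher (Rht-B1) and 1 as lower (the small subunit of AGPase), and limma gave all genes 1 standard error of 0.16, so the spread of a single gene does not enter those p-values. Of the 25 genes, 9 had differences of 1 sign in 3 of 3 pairs, 7 of them higher in *Rht-B1b* (Rht-B1, AB042069, KT288199, starch synthase isoform IV, SUT1D, GDH and GS2) and 2 lower (agp2 and SUT2D). Such agreement of signs can arise by chance, and the count was not tested. With actin, the geometric mean was 3736 RPKM in tissue sample 11 against 3888 in 10, 2978 in 14 against 2575 in 13, and 2775 in 17 against 2332 in 16. The signs of starch synthase isoform IV and GS2 between tissue samples 14 and 13 therefore depend on the scaling. Between 3 and 3 samples the smallest p of a two-sided exact permutation test is 0.1, which is also its value for Rht-B1.

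Among the genes of gibberellin signalling, Rht-B1 rose in *Rht-B1b*, and Rht-D1, gid1 and gid2 did not pass. Rht-B1 had 2344, 2961 and 1917 RPKM in *Rht-B1b* leaves, against 1473, 972 and 904 RPKM in *Rht-B1a* leaves. All samples of *Rht-B1b* lay above all of *Rht-B1a*, which held for 1 of 25 genes (4%). The fold change was 2.17 with a 95% interval of 1.56 to 3.03 (log2 fold change 1.12, adjusted p = 0.0249 from limma). The call held without each pair in turn (log2 fold change 0.88 to 1.34, highest adjusted p = 0.0407 from limma). It was lost with a pseudocount of 100 (adjusted p = 0.249), among the 20 genes with a mean of at least 500 RPKM (adjusted p = 0.0522), when each gene was given its own spread (adjusted p = 0.444, fold change interval 0.970 to 4.87) and, in fits without pairs, when any 1 sample other than tissue sample 10 was left out, at an adjusted p of up to 0.574 without tissue sample 14 (limma, log2 fold change 0.96). Over 17 alternatives the adjusted p ran from 1.66e-06 to 0.574.

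Rht-D1, the homeolog of Rht-B1 on the D genome, had 806, 848 and 770.3 RPKM in *Rht-B1b* and 900.4, 655 and 568 RPKM in *Rht-B1a* (fold change 1.16, interval 0.875 to 1.54). The samples overlapped, and tissue sample 10 of *Rht-B1a* was the highest of all. The receptor gene gid1 had 807, 891 and 718 RPKM in *Rht-B1b* and 1116, 685 and 645 RPKM in *Rht-B1a* (fold change 1.02, interval 0.736 to 1.40). Its *Rht-B1b* values fell within the range of *Rht-B1a*, and its estimate was below 0 after scaling to the geometric mean. The F-box gene gid2 had 1380.3, 1731 and 1149 RPKM in *Rht-B1b* and 1479, 966 and 847 RPKM in *Rht-B1a* (fold change 1.31, interval 0.940 to 1.84, adjusted p = 0.280 from limma).

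Within a sample, Rht-B1 was also higher in *Rht-B1b* relative to each of these 3 genes, without overlap between the lines. The ratio of Rht-B1 to Rht-D1 was 2.91, 3.49 and 2.49 in *Rht-B1b* leaves, against 1.64, 1.48 and 1.59 in *Rht-B1a* leaves. The ratio of Rht-B1 to gid2 was 1.70, 1.71 and 1.67 in *Rht-B1b*, against 0.996, 1.01 and 1.07 in *Rht-B1a*. Samples of a line thus differed little in this ratio, although tissue sample 14 had the highest and tissue sample 17 the lowest Rht-B1 of its line. The difference of the log2 ratio to gid2 was 0.73. Its interval was 0.27 to 1.18 with the spread that all ratios share and 0.55 to 0.90 from the spread of this ratio alone. Its adjusted p was 0.0149 with the shared spread of all ratios and 0.260 with its own (limma). The ratio of Rht-B1 to gid1 was 2.91, 3.32 and 2.67 in *Rht-B1b*, against 1.32, 1.42 and 1.40 in *Rht-B1a*. Between gid1 and gid2 the lines did not overlap either, and over all genes this held for 48 of 300 ratios (16%). The ratios of gid1 to gid2 were 0.584, 0.515 and 0.625 in *Rht-B1b* and 0.755, 0.709 and 0.761 in *Rht-B1a* (log2 difference -0.37, interval -0.83 to 0.084, adjusted p = 0.363 from limma). That interval rests on the shared spread, and with the ratio's own spread it was -0.59 to -0.15 (adjusted p = 0.469 from limma). Rht-B1 and Rht-D1 are close in sequence and can share reads, and a read had to be identical to the listed sequence to be counted. Whether reads of the alleles match unequally was not tested.

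The gibberellin genes also moved together between replicates. In *Rht-B1a* they followed the shift of the whole sample, and after scaling to the geometric mean their SD was 0.020 to 0.068 on the log2 scale. In *Rht-B1b* it was 0.22 to 0.35. There the 4 genes lay at -0.021 to 0.0079 from their line mean in tissue sample 11, where 20 of the 21 other genes lay above it. In tissue sample 14 they lay 0.071 to 0.32 above the mean, where 3 of the 21 other genes did, hexokinase, Sbe2 and SUT1D. Tissue sample 14 was thus high for all 4 gibberellin genes and low for most others. The course was not particular to these genes, since hexokinase lay at -0.0091, 0.24 and -0.23 in *Rht-B1b*. Its SD after the scaling was 0.29 in *Rht-B1b* and 0.099 in *Rht-B1a*.

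All 25 genes give 300 pairs of genes, and their log2 ratios were compared between the lines in the same way. Of these, 48 (16%) passed an adjusted p of 0.05 from limma and 48 (16%) did not overlap between the lines, with 28 pairs in both sets. Rht-B1 was one gene of the pair in 24 of the calls, where it was higher relative to each of the 24 other genes. The differences ran from 0.64 (rbcS AB042069) to 1.78 (small subunit of AGPase), with a median of 1.03 on the log2 scale. Its ratio did not overlap between the lines for 23 of 24 partners. The exception was AB042069. The small subunit of AGPase took part in 21 calls, 1 of them with Rht-B1, always as the lower gene. Without overlap it was lower relative to 5 genes, which were Rht-B1, AB042069, KT288199, GS2 and sbeiia. It was not called against agp2, SUT2D and PK. The remaining 4 calls set gid2 or AB042069, as the higher gene, against agp2 or PK. Where both genes had the same role, 3 of 35 ratios were called and 8 did not overlap. Limma gave all 300 ratios 1 standard error of 0.23, and ratios that have a gene in common are not independent. That error was also used for the small subunit of AGPase, whose own spread was the widest of the 25 genes. Of its ratios, 0 passed without the pairs of samples. Without the pairs of samples 5 ratios passed, those of Rht-B1 to gid1, Sbe2, SUT2D, hexokinase and PK (39 at an unadjusted p under 0.05). With each ratio's own spread the count in limma was 0 (29 unadjusted).

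**Figure D4:**
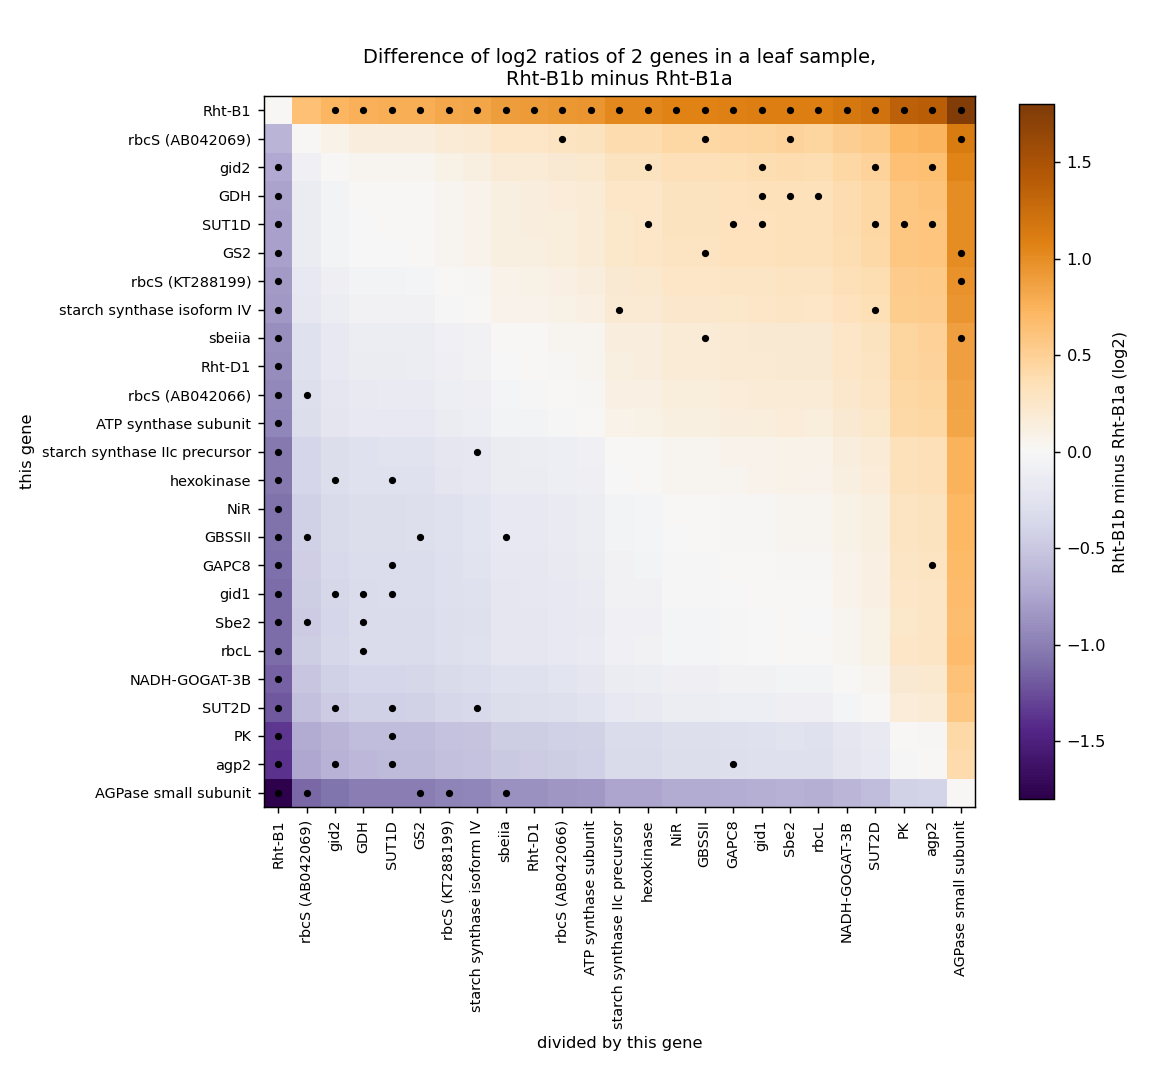
Difference between the lines, *Rht-B1b* minus *Rht-B1a*, of the mean log2 ratio of the gene in the row to the gene in the column within a leaf sample. Orange is higher and purple lower in *Rht-B1b*, and dots mark ratios whose 3 *Rht-B1b* samples all lie on 1 side of the 3 *Rht-B1a* samples. The row of Rht-B1 holds 23 dots and differences of 0.64 to 1.78.

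Apart from rbcL, the genes of RuBisCO and ATP synthase were among the 5 highest, and 0 of 5 passed in limma (1 unadjusted at 0.05). The small subunit sequence AB042069 had 514989, 372725 and 309665 RPKM in *Rht-B1b* leaves, against 501489, 246555 and 178549 RPKM in *Rht-B1a* leaves. It was higher in 3 of 3 pairs, while the lines overlapped widely, since tissue sample 10 nearly reached tissue sample 11. The fold change was 1.39 with an interval of 1.02 to 1.89 (unadjusted p = 0.0380, adjusted p = 0.280 from limma). Leaving out pair 1 gave a log2 fold change of 0.70 (adjusted p = 0.0421), and leaving out tissue sample 10 without pairs gave 0.90 (adjusted p = 0.0280 from limma). Over its 17 alternatives the adjusted p reached 0.990, and those 2 passed. KT288199 had 1268828, 810505 and 713749.6 RPKM in *Rht-B1b* and 1208597, 653004 and 496381 RPKM in *Rht-B1a* (interval of the fold change 0.954 to 1.59). AB042066 had 1610924, 1135055 and 1004889 RPKM in *Rht-B1b* and 1873302, 876126 and 750613 RPKM in *Rht-B1a* (interval 0.852 to 1.53).

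Ratios among the small subunit sequences varied less between samples than their levels. The ratio of AB042066 to AB042069 was 3.13, 3.05 and 3.25 in *Rht-B1b*, against 3.74, 3.55 and 4.20 in *Rht-B1a*. The lines did not overlap, as in 16% of all 300 ratios, and the log2 difference was -0.28. Its interval was -0.74 to 0.17 with the shared spread of all ratios (adjusted p = 0.504 from limma). With the ratio's own spread it was -0.48 to -0.087 (adjusted p = 0.469 from limma). The ratio of AB042066 to KT288199 was 1.27, 1.40 and 1.41 in *Rht-B1b* and 1.55, 1.34 and 1.51 in *Rht-B1a*, and overlapped. The 3 sequences are close relatives and may share reads. For rbcL, the gene of the large subunit, the levels were 1.79, 1.19 and 1.08 RPKM in *Rht-B1b* and 1.69, 0.966 and 1.36 RPKM in *Rht-B1a*, so near the pseudocount of 1 that the log scale compresses its change. The ATP synthase subunit, a part of the enzyme that makes ATP, had 148036, 118654 and 116325 RPKM in *Rht-B1b* and 172597, 96229 and 86327 RPKM in *Rht-B1a* (interval 0.842 to 1.504).

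ADP-glucose pyrophosphorylase makes the glucose donor for starch, and both of its genes had lower estimates in *Rht-B1b* without passing (0 of 2 in limma, 1 at an unadjusted p under 0.05). The small subunit had 1347, 718 and 627 RPKM in *Rht-B1b* leaves, against 2299, 1693 and 615 RPKM in *Rht-B1a* leaves. Tissue sample 16 of *Rht-B1a* was the lowest of all 6 samples, so the lines overlapped. The fold change was 0.633 with an interval of 0.423 to 0.947 (log2 fold change -0.66, unadjusted p = 0.0316, adjusted p = 0.280 from limma). Its spread was the widest of the 25 genes, with an SD of log2 RPKM of 0.59 in *Rht-B1b* and 0.995 in *Rht-B1a*, and its rank was 14, 17 and 18 in *Rht-B1b* and 11, 11 and 17 in *Rht-B1a*. It passed when tissue sample 16 or its pair was left out. Without that pair the log2 fold change was -1.004 (adjusted p = 0.0407), and without tissue sample 16 in a fit without pairs it was -1.22 (adjusted p = 0.0117 from limma). It was -0.37 without pair 2, and -0.27 without tissue sample 10 in a fit without pairs. With the geometric mean it was -0.79 (adjusted p = 6.55e-05 from limma), in the fit where all genes had 1 standard error.

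Relative to GS2 of the same sample, the small subunit of AGPase lay at 0.00621, 0.00528 and 0.00464 in *Rht-B1b*, against 0.0121, 0.0140 and 0.00719 in *Rht-B1a*. Here the lines did not overlap, as in 16% of all 300 ratios, and tissue sample 16 was again the nearest to *Rht-B1b*. The gene agp2, which encodes a large subunit, had 355, 243 and 314 RPKM in *Rht-B1b* and 405, 273 and 419 RPKM in *Rht-B1a*, and was higher in 0 of 3 pairs (fold change 0.837, interval 0.659 to 1.06, adjusted p = 0.296 from limma). The ratio of agp2 to the small subunit was 0.263, 0.338 and 0.502 in *Rht-B1b* and 0.176, 0.161 and 0.681 in *Rht-B1a*. Tissue sample 16 was the highest and its fellow replicates the lowest, so no direction could be given. The ratio of gid2 to agp2 was 3.89, 7.13 and 3.66 in *Rht-B1b*, against 3.65, 3.53 and 2.02 in *Rht-B1a*, and did not overlap by a narrow margin (adjusted p = 0.0342 from limma).

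Starch synthase and branching enzyme genes did not pass in limma (0 of 5, and 0 at an unadjusted p under 0.05). Their estimates lay above 0 for all 5 with actin and for 2 with the geometric mean. Starch synthase isoform IV, which elongates glucan chains, had 1320.3, 924 and 953 RPKM in *Rht-B1b* leaves, against 1092, 855 and 694 RPKM in *Rht-B1a* leaves. Scaled to actin, it was higher in 3 of 3 pairs and overlapped (fold change 1.22, interval 0.952 to 1.55). The granule-bound starch synthase GBSSII had 1932, 1217 and 1248 RPKM in *Rht-B1b* and 2024, 1417 and 929 RPKM in *Rht-B1a* (fold change 1.03, interval 0.775 to 1.38). The branching enzyme gene sbeiia had 3563, 2322 and 2509.8 RPKM in *Rht-B1b* and 3575, 2463 and 1488 RPKM in *Rht-B1a* (interval 0.837 to 1.62). Starch synthase IIc precursor had a fold change of 1.07 (interval 0.844 to 1.35) and an estimate below 0 with the geometric mean. The branching enzyme gene Sbe2 had 380.4, 335 and 240.4 RPKM in *Rht-B1b* and 489.7, 272 and 225 RPKM in *Rht-B1a* (fold change 1.01, interval 0.755 to 1.34).

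Of the 10 ratios inside this group 2 (20%) did not overlap, by small margins, against 16% of all 300 ratios. Starch synthase isoform IV to starch synthase IIc precursor was 2.46, 2.26 and 2.52 in *Rht-B1b*, against 2.00, 2.25 and 2.10 in *Rht-B1a* (adjusted p = 0.696 from limma). GBSSII to sbeiia was 0.542, 0.524 and 0.497 in *Rht-B1b*, against 0.566, 0.575 and 0.624 in *Rht-B1a* (adjusted p = 0.718 from limma). The intervals of both differences included 0, at -0.27 to 0.65 and -0.63 to 0.28 on the log2 scale with the shared spread of all ratios. With each ratio's own spread they were -0.21 to 0.59 and -0.52 to 0.17.

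The sucrose transporters, which carry sucrose across membranes, did not pass (0 of 2 in limma, 0 at an unadjusted p under 0.05). SUT1D had 18250.2, 17015 and 14618 RPKM in *Rht-B1b* leaves, against 16191, 11798 and 11596 RPKM in *Rht-B1a* leaves. It was higher in 3 of 3 pairs, and tissue sample 10 lay inside the range of *Rht-B1b* (fold change 1.27, interval 0.994 to 1.62, unadjusted p = 0.0546, adjusted p = 0.280 from limma). SUT2D had 799.6, 631 and 628 RPKM in *Rht-B1b* and 859, 655 and 662 RPKM in *Rht-B1a*, and was higher in 0 of 3 pairs (fold change 0.948, interval 0.755 to 1.19). The ratio of SUT1D to SUT2D was 22.8, 26.9 and 23.3 in *Rht-B1b*, against 18.9, 18.0 and 17.5 in *Rht-B1a*. The lines did not overlap, and the log2 difference was 0.42. Its interval was -0.034 to 0.88 with the shared spread of all ratios (adjusted p = 0.266 from limma). With the ratio's own spread it was 0.042 to 0.80 (adjusted p = 0.469 from limma). SUT1D was higher without overlap relative to 6 of 24 genes and lower relative to 1 (Rht-B1), against 16% of all 300 ratios without overlap. The 6 genes were SUT2D, gid1, agp2, hexokinase, GAPC8 and PK. For the last 3 the differences were 0.26, 0.31 and 0.58 on the log2 scale, and 0 of these 3 ratios passed in limma (adjusted p = 0.535, 0.476 and 0.0676).

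None of the 4 nitrogen genes passed in limma (0 also unadjusted at 0.05). GS2, the chloroplast glutamine synthetase, had 216989.5, 135848 and 135135 RPKM in *Rht-B1b* and 189839, 120558 and 85625 RPKM in *Rht-B1a*. GDH, a glutamate dehydrogenase, had 782, 572 and 486 RPKM in *Rht-B1b* and 703, 391 and 383 RPKM in *Rht-B1a*. Scaled to actin, both were higher in 3 of 3 pairs and overlapped. Their intervals of the fold change were 0.968 to 1.66 for GS2 and 0.991 to 1.63 for GDH. NiR, which reduces nitrite in the chloroplast, had 13281, 8814 and 9973 RPKM in *Rht-B1b* and 13349, 7463 and 10602 RPKM in *Rht-B1a* (interval 0.810 to 1.32). The glutamate synthase gene NADH-GOGAT-3B had 472, 367 and 436 RPKM in *Rht-B1b* and 409, 476 and 419.7 RPKM in *Rht-B1a* (interval 0.739 to 1.28). It was the gene with the smallest spread in *Rht-B1a*, at an SD of 0.12 on the log2 scale, and one that did not follow the shift of tissue sample 10.

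The glycolysis genes GAPC8 and hexokinase, which phosphorylates glucose, did not pass either (0 of 2 in limma, 0 at an unadjusted p under 0.05). GAPC8 had 47024, 33279 and 39746 RPKM in *Rht-B1b* and 45468, 33798 and 37893 RPKM in *Rht-B1a*, so the lines lay over each other (fold change 1.02, interval 0.813 to 1.28). Hexokinase had 560.5, 667 and 479.9 RPKM in *Rht-B1b* and 690.2, 464 and 469 RPKM in *Rht-B1a* (interval 0.775 to 1.45). The gene listed as PK had 2494, 2089.6 and 2568 RPKM in *Rht-B1b* and 3329, 2081 and 3178 RPKM in *Rht-B1a* (fold change 0.847, interval 0.657 to 1.09).

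Some genes kept a nearly fixed ratio through all 6 leaf samples. KT288199 to GS2, both coding for chloroplast proteins, lay at 5.28 to 6.37, gid1 to hexokinase at 1.34 to 1.62, and agp2 to PK at 0.116 to 0.142. The SD of these log2 ratios over 6 samples was 0.097, 0.097 and 0.11, against a median of 0.32 and a maximum of 1.15 over the 300 pairs. These 3 pairs were chosen after their values were seen.

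The intervals say which sizes of change the leaf data leave out. The 95% interval reached 0.33 to 0.58 to either side of the estimate on the log2 scale, with a median of 0.40. Among the ratios of 300 pairs, 243 had an interval within a 2-fold and 85 within a 1.5-fold change. Those intervals rest on the standard error that all ratios share, and the counts were 214 and 38 without pairs and 130 and 37 with each ratio's own spread. For 23 of 25 genes the interval lay within a 2-fold change in either direction, and for 10 within a 1.5-fold change. Rht-B1 and the small subunit of AGPase were the exceptions at 2-fold. The narrower bound depended on the fit, and 1.5-fold changes were left out for 0 genes without pairs, for 5 with each gene's own spread and for 20 with the geometric mean. At 2-fold these counts were 18, 14 and 23. In all 4 of these fits 12 genes stayed within 2-fold, which were KT288199, rbcL, agp2, starch synthase IIc precursor, GBSSII, Sbe2, starch synthase isoform IV, SUT2D, NADH-GOGAT-3B, NiR, GAPC8 and PK. Over all alternatives run, GBSSII, SUT2D, NiR and GAPC8 stayed within it in 17 of 17, and rbcL and NADH-GOGAT-3B in 16 of 16. The others left it in some, with KT288199 and starch synthase isoform IV within it in 13 of 17, PK in 14 of 17, agp2 in 13 of 16, and starch synthase IIc precursor and Sbe2 in 15 of 16. Over the 4 fits the widest bounds were fold changes of 0.528 and 1.32 for agp2, 0.599 and 1.501 for SUT2D, 0.653 and 1.64 for NiR, and 0.646 and 1.62 for GAPC8. For gid2 they were 0.583 and 2.96, for AB042069 0.708 and 2.73, and for sbeiia 0.525 and 2.59, so a 2-fold rise of these 3 genes was not left out. Nor was it for Rht-D1, gid1, AB042066, the ATP synthase subunit, SUT1D, GDH, GS2 and hexokinase, with upper bounds from 2.01 (SUT1D) to 2.17 (hexokinase). A 2-fold fall was not left out for gid1 (0.477) and the small subunit of AGPase (0.211). The bounds of rbcL hold on the scale with the pseudocount only.

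**Figure D5:**
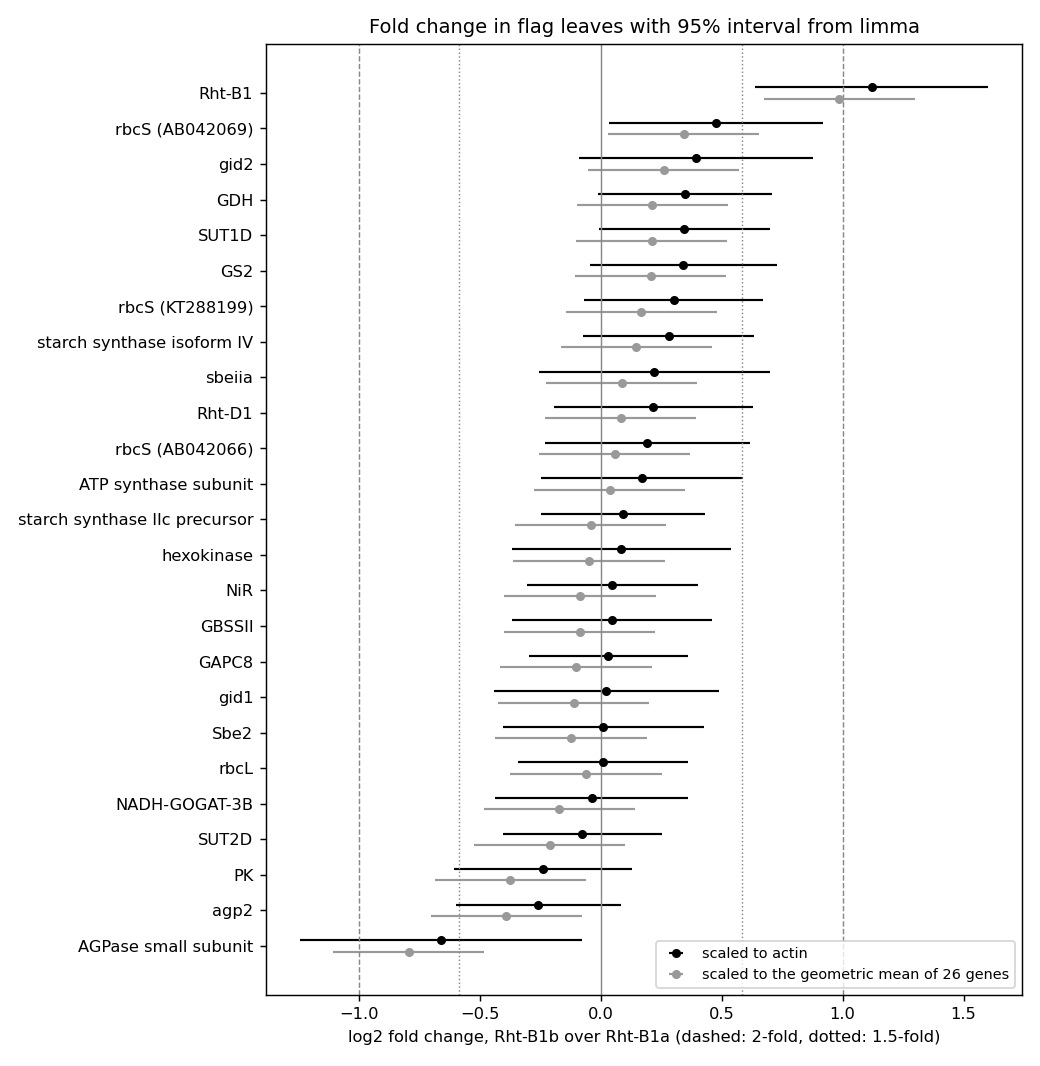
Log2 fold change, *Rht-B1b* over *Rht-B1a*, of each gene in flag leaves with its 95% interval from limma, from samples scaled to actin (black) and to the geometric mean of 26 genes (grey). Dashed lines mark a 2-fold and dotted lines a 1.5-fold change. The intervals of 23 genes lie between the dashed lines, and that of Rht-B1 starts at 0.64 with actin.

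The effect in leaves differed from that in stems for 3 of 25 genes (12%, limma on 12 tissue samples, adjusted p under 0.05), and 10 genes had an unadjusted p under 0.05. In all 3 the effect was lower in leaves, and 21 of 25 estimates of leaf minus stem lay below 0, or 13 with samples scaled to the geometric mean, which moved the median difference by 0.41. For gid1 the log2 difference, leaf minus stem, was -1.42 with a standard error of 0.31 and an adjusted p of 0.00944 from limma. The leaf values of gid1 stand above, and in stems it had 618, 491 and 755 RPKM in *Rht-B1b*, against 306, 193 and 192 RPKM in *Rht-B1a*. For starch synthase IIc precursor the difference was -0.82, with a standard error of 0.23 and an adjusted p of 0.0355 from limma, with 537, 409 and 378 RPKM in *Rht-B1b* and 545, 379.9 and 331 RPKM in *Rht-B1a* leaves, and with 366, 364 and 568 RPKM in *Rht-B1b* and 234, 174 and 275 RPKM in *Rht-B1a* stems. Its leaf values overlapped, and its stem values did not. For agp2 it was -1.43 with a standard error of 0.26 and an adjusted p of 0.00413 from limma, and in stems agp2 had 3485, 2659.8 and 5209 RPKM in *Rht-B1b* and 2040.1, 1193 and 1738 RPKM in *Rht-B1a*. With the geometric mean 5 genes passed, gid1, agp2, gid2, SUT1D and NADH-GOGAT-3B, the last 3 of them with a higher effect in leaves, and starch synthase IIc precursor was lost (adjusted p = 0.212 from limma). These calls did not hold when the leaf pair and the stem pair of the same number were left out together. Pairs were numbered by the order of the tissue samples within a tissue. For gid1 (adjusted p = 0.0515 to 0.0775 from limma) and starch synthase IIc precursor (0.0515 to 0.266) the call was lost without each pair in turn, and agp2 kept it without pair 1 only (0.0327 to 0.0775). Without pair 2, 0 genes passed (5 at an unadjusted p under 0.05), and without pair 3 the 1 gene that passed was the small subunit of AGPase (adjusted p = 0.0291). For Rht-B1 the difference was -0.19 with an interval of -0.78 to 0.41 (adjusted p = 0.580 from limma). The interval holds a leaf effect weaker by up to 0.78 as well as one stronger by up to 0.41, and with the geometric mean the difference was 0.22 (adjusted p = 0.660 from limma).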

How the data were processed

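RNA of flag leaves was sequenced from 3 samples per line. The authors matched reads with ArrayStar (version not given in the sources used here) at 100% over at least 50 bp to selected wheat sequences, and the deposited RPKM values are scaled to actin. Scaling ties all genes of a sample to 1 gene, and depth is unknown. Of 27 lines 1 is a repeat, which leaves 26 sequences. The second sheet repeats lines of the first and was not used. The authors' means, p-values and ratios were not used. No build is stated, so no coordinates are given, and 0 GenBank identifiers matched the RefSeq gene table.

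On log2(RPKM + 1), values were compared in R 4.3.3 with limma 3.58.1, with pairs of consecutive tissue samples as a block (after the paired test of the methods), Benjamini-Hochberg adjustment over 25 genes, and 95% intervals from the same fit. Log2 ratios of 300 gene pairs were fitted alike without a pseudocount, as was leaf minus stem over 12 tissue samples. Only the leaf fit of single genes was tested on simulated data. There noise was drawn separately for each gene, with a shift common to the samples of a pair. The fits of ratios and of leaf minus stem were not simulated. Named genes are all 25, with full statistics for those with an unadjusted p under 0.05, without overlap, or past the threshold for leaf minus stem. Members and lists were chosen with earlier results of these data known. Alternatives were other pseudocounts (0 and 100), a filter (mean of at least 500 RPKM), other scalings, no pairs, pairs or samples left out, both tissues in 1 fit, and no sharing of spread between genes. P-values rest on the spread between these samples, which was pooled over all genes or ratios where the fit gave 1 standard error.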

Additional observations from a re-analysis of the deposited data

Results flagged for a closer look

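For 3 genes the effect of *Rht-B1b* differed between leaves and stems in a test of the difference itself (limma, leaf minus stem on the log2 scale). It was -1.42 for gid1, -1.43 for agp2 and -0.82 for starch synthase IIc precursor, each with a smaller or opposite effect in leaves. In leaves the log2 fold change was 0.022 for gid1, -0.26 for agp2 and 0.092 for starch synthase IIc precursor, and in stems 1.44, 1.17 and 0.91. The scaling to actin enters both tissues, and with the geometric mean the differences were -1.01, -1.02 and -0.42, the last of which did not pass (adjusted p = 0.212 from limma). With the leaf pair and the stem pair of 1 number left out together, gid1 (adjusted p = 0.0515 to 0.0775) and starch synthase IIc precursor (0.0515 to 0.266) passed in 0 of 3 fits. The gene agp2 passed in 1 of 3 (0.0327 to 0.0775, limma).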

How the results depend on the processing

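The leaf comparison called 1 gene, 2 with the geometric mean, 2 with the median gene, 0 with a pseudocount of 100 (3 at an unadjusted p under 0.05), 0 among 20 genes with a mean of at least 500 RPKM (2 unadjusted) and 0 with no sharing of spread (1 unadjusted, limma), 1 to 2 with a pair left out, and 0 to 2 with 1 sample left out in fits without pairs. Intervals within 2-fold numbered 23, 14 with no sharing of spread, 21 to 24 with a pair left out and 7 to 23 with 1 sample left out in fits without pairs (12 without tissue sample 14). Called ratios numbered 48, 5 without the block, 0 with no sharing of spread (29 unadjusted) and 30 to 44 with a pair left out. Leaf minus stem called 3 genes, 5 with the geometric mean and 0 to 1 with the leaf and stem pairs of 1 number left out. Genes without overlap numbered 1, and 3 with the median gene.

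Estimates near 0 turned. For gid1 the log2 fold change was -0.11 with the geometric mean, -0.20 with the median gene, -0.16 to 0.27 with a pair left out and -0.12 to 0.27 with 1 sample left out, among them -0.054 without tissue sample 14 and -0.080 without 13. For starch synthase IIc precursor it was -0.042, -0.13, 0.043 to 0.15 and -0.061 to 0.30 in the same order, with -0.058 without tissue sample 11. The cause was not tested.

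Deviations from the line means correlated across genes within pairs at 0.51, -0.076 and 0.71 in this order. With 1 of 3 not above 0.1, a pattern of genes shared within every pair was not shown. Such a correlation is blind to a shift of the whole sample, so it cannot decide whether the levels of paired samples moved together. The median deviations had the same order in both lines, at 0.28, -0.11 and -0.20 in *Rht-B1b* and 0.43, -0.16 and -0.30 in *Rht-B1a*. Whether that order came from the pairs was not tested. Without the replicate block the leaf count stayed 1 (Rht-B1, adjusted p = 0.0284 from limma), 18 intervals lay within 2-fold, and starch synthase IIc precursor lost its call for leaf minus stem (adjusted p = 0.314 from limma). Unknown depth limits what can be said of rbcL.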
